A study of Mus musculus with 10 samples.

Results

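The 10 immediate early serum response genes *Fos*, *Fosb*, *Fosl1*, *Jun*, *Junb*, *Egr1*, *Ier2*, *Ier3*, *Myc* and *Srf* were followed through all 10 RNA-seq libraries of NIH3T3 mouse fibroblasts, an immortalized cell line, that had been starved of serum. The genes were listed by name, and all 10 were found among the 45232 gene entries of the expression table. Their levels address whether starved cells without functional Lin37 show signs of growth factor signalling, which acts upstream of the cell cycle genes. All cells carried InDels in *Lin37* made with CRISPR/Cas9 nickase, and came from clone 411-27, mutated in exon 4, or clone 632-2, mutated in exon 6, each line grown from a single cell. All cells also carried a stably introduced episome, a plasmid kept outside the chromosomes, with a doxycycline-inducible promoter, which coded for luciferase in the KO groups and for wild-type Lin37 in the rescue groups. RNA was taken after 60 h in medium with 0% FCS. The exon 4 clone gave 2 KO and 2 rescue libraries, which are biological replicates 1 and 2. The exon 6 clone gave 3 KO and 3 rescue libraries, of which sample 3 is the technical replicate of sample 2, and both were averaged to 1 biological replicate. The sources used here do not say at which step the technical replicates were divided. Each genotype in each clone rests on 1 cell line, so a KO change that is not shared by both clones cannot be told apart from a difference between lines.

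Immediate early genes are the first genes that quiescent cells transcribe when serum or a growth factor is added, and their induction needs no new protein synthesis. Growth factor receptors act through RAS and a cascade of kinases on ternary complex factors, which sit with the serum response factor SRF on CArG boxes in the promoters of many of these genes, and the transcripts are short-lived. The products are largely transcription factors, among them AP-1 dimers of FOS and JUN proteins, EGR1 and MYC, which then act on delayed early genes such as D-type cyclins, ahead of the cell cycle genes that the DREAM complex represses in quiescence. Lin37 is a subunit of the MuvB core of DREAM.

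Promoter sequences were available for 6 of the 10 genes in a RefSeq table for GRCm38.p6 (*Fos*, *Fosb*, *Jun*, *Junb*, *Ier3* and *Srf*). The 250 bases before and the 50 bases after each start were searched on both strands. The search was for the CArG box, the cAMP response element TGACGTCA, the AP-1 site TGACTCA, the E2F core TTCCCGCC and the cell cycle gene homology region (CHR) TTTGAA. The last 120 bases before the start are shown for both genes with an exact match, and for *Fos* beside them. Capitals mark exact matches, here CArG boxes in *Srf* and the E2F core, on the opposite strand, in *Fosb*.
*Srf*, chr17:46556163-46556282, minus strand: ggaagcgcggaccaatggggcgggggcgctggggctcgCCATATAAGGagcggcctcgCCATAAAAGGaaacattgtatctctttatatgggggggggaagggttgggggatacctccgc
*Fosb*, chr7:19310046-19310165, minus strand: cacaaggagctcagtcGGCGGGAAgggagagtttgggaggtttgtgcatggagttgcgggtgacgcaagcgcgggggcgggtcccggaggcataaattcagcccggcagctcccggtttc
*Fos*, chr12:85473770-85473889, plus strand: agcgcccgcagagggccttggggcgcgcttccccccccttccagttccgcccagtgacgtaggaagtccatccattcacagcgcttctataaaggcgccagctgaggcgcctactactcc
*Srf* was the only one of the 6 with an exact CArG box, and held 2, at -82 and -62 from the start. Of all 32851 promoters in the table, 1.629% held an exact CArG box. With 1 mismatch allowed, a match was present in 19.868% of promoters, and in *Fos* at -35, in *Ier3* at -175 and -71 and in *Srf* at -39. The E2F core was found in *Fosb* at -104 and in 2.192% of all promoters. The AP-1 site, present in 5.202% of all promoters, the cAMP response element (1.79%) and the CHR (17.893%) had no exact match in these 6 windows. The serum response element by which *Fos* is best known lies further upstream than this window. Matches describe letters in the sequence and were not tested for binding.

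The deposited values are RPKM, reads scaled to gene length and library total, with no counts, so the depth of the libraries is unknown and no counting error can be given. The libraries differed in overall scale, with scaling factors from 0.324 to 2.70 over 8523 genes, and in the number of entries at 0, which ranged from 7920 to 22034. All levels given here are RPKM divided by these factors. *Lin37* itself was at 0.268 to 0.417 RPKM in the 5 KO libraries and at 2.12 to 5.11 RPKM in the 5 rescue libraries, in the direction of the labels. Of 9 fibroblast markers, 8 had a mean of at least 1 RPKM in every group, and *Lum* did not. The 12 markers of blood, epithelium, endothelium, muscle, fat and neural cells summed to 1.07 to 1.81 RPKM per replicate, led by *Cd68* (0.605 to 1.35 RPKM), and *Epcam*, *Krt8*, *Myod1*, *Pparg*, *Adipoq*, *Sox2* and *Tubb3* were each at 0 in at least 1 replicate. The highest sums, 1.68 and 1.81 RPKM, were those of the exon 6 KO replicates, and the part of this in the results was not tested. In RNA from whole cultures, a gene expressed in fewer cells and a gene expressed at a lower level per cell cannot be told apart.

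In rescue cells the 10 genes spanned from 8.68 ± 2.34 RPKM for *Myc* to 0.463 ± 0.377 RPKM for *Fosb* (SD, n = 4). After *Myc* came *Egr1* with 8.09 ± 5.48 RPKM, *Junb* with 6.98 ± 3.29, *Ier3* with 4.65 ± 0.952, *Ier2* with 3.50 ± 1.53, *Fosl1* with 3.19 ± 1.69, *Jun* with 2.83 ± 0.949, *Srf* with 1.42 ± 0.236 and *Fos* with 0.865 ± 0.631 RPKM. Of the neighbours in this order, only *Jun* and *Srf* lay further apart than the larger of their SDs, by 1.49 times that SD. By its mean over the 8 replicates, *Egr1* stood at percentile 95.03 of the genes tested and *Fosb* at percentile 37.8. No library from serum-stimulated cells was analysed here, so these levels have no induced reference beside them.

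**Figure D1:**
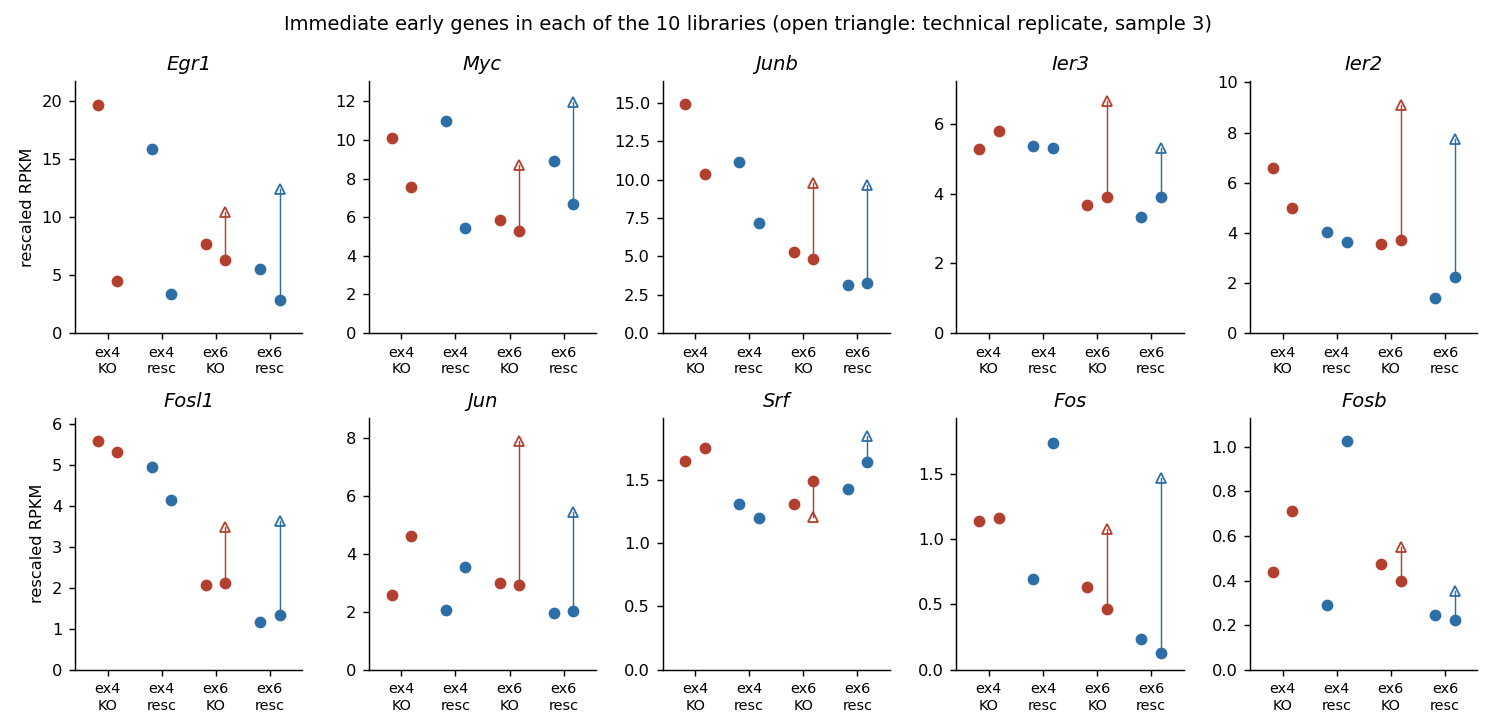
Rescaled RPKM of each immediate early gene in each of the 10 libraries, with KO in red and rescue in blue, exon 4 clone (ex4) left and exon 6 clone (ex6) right; circles are samples 1 and 2, and an open triangle joined by a line is sample 3, the technical replicate of sample 2. Taken over both clones, KO and rescue libraries overlap in every panel, and sample 3 lies above sample 2 in both groups for every gene except *Srf*.

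None of the 10 genes was called different between KO and rescue cells. Over both clones, tested with limma with clone as a covariate, 0 of 10 passed an adjusted p under 0.05, against 271 of 16866 genes called higher (1.61%) and 14 called lower (0.083%) in KO cells. None of the 10 had an unadjusted p under 0.05 either, which 8.79% of all genes had. The log2 change of RPKM + 0.5 was positive for 9 of the 10, with a median of 0.23 beside -0.03 over all genes tested, and ranged from -0.16 for *Myc* to 0.63 for *Ier2*. Pooled over both clones, which differed in level for some of these genes, the KO and rescue replicates overlapped for all 10. The share of all genes that overlapped in this way was not counted.

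The replicate numbers in the labels pair KO and rescue libraries within a clone, and replicates with the same number deviated together. *Fosl1*, *Jun*, *Junb*, *Egr1* and *Ier2* were higher in KO than in rescue cells in all 4 pairs, as were 8.96% of all genes, and none of the 10 was lower in all 4 pairs, as were 13% of all genes. With the replicate number as a block, 5 of the 10 had an unadjusted p under 0.05, as had 12.6% of all genes in that fit, namely *Jun* (0.00283), *Ier2* (0.00291), *Junb* (0.00465), *Egr1* (0.0130) and *Fosl1* (0.0233), all with positive changes. After Benjamini-Hochberg adjustment over all genes in limma, none passed in that fit, and the lowest adjusted p was 0.103, for *Jun*.

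**Figure D2:**
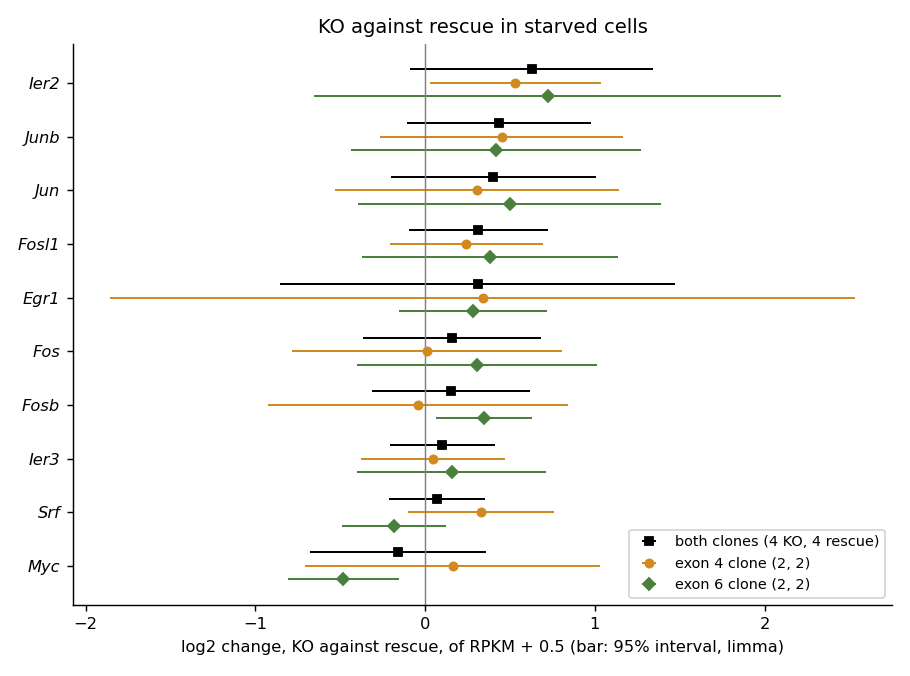
Log2 change of RPKM + 0.5, KO against rescue, for each immediate early gene over both clones (black squares, 4 replicates each) and in the exon 4 (orange circles) and exon 6 (green diamonds) clones alone (2 replicates each); bars are 95% intervals from limma without the replicate block. All 10 intervals over both clones include 0, and the one of *Egr1* is the widest, from -0.86 to 1.47. With the block, which is not drawn, those of *Fosl1*, *Jun*, *Junb*, *Egr1* and *Ier2* lie above 0.

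Among the AP-1 genes, the log2 changes of *Jun* and *Junb* were 0.40 and 0.44 and those of *Fos*, *Fosb* and *Fosl1* were 0.16, 0.15 and 0.31, none of which passed the test. *Junb* (ENSMUSG00000052837.5, chr8:84974484-84978718, minus strand), which encodes a JUN protein that often restrains growth, was at 14.9 and 10.4 RPKM in exon 4 KO libraries 1 and 2 and at 11.1 and 7.20 in the matching rescue libraries. In the exon 6 clone it was at 5.26, 4.84 and 9.82 RPKM in KO libraries 1 to 3 and at 3.13, 3.25 and 9.68 in rescue libraries 1 to 3. Each KO library was above the rescue library of its number. Within each clone KO and rescue libraries overlapped, as replicates 1 of the exon 4 clone and samples 3 of the exon 6 clone were high in both genotypes. Across the clones, both exon 4 rescue libraries were also above exon 6 KO libraries 1 and 2. The log2 change was 0.44 (SE 0.24, 95% interval -0.10 to 0.97, adjusted p = 0.671 in limma). The interval was 0.18 to 0.69 with the replicate block (adjusted p = 0.138 in limma). *Junb* overlaps the plus-strand gene *Prdx2*, and reads of overlapping genes could not be reassigned.

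*Jun* (ENSMUSG00000052684.4, chr4:95049034-95052222, minus strand, a single exon) encodes the transactivating partner of FOS. Its levels were 2.60 and 4.62 RPKM in the exon 4 KO libraries and 2.06 and 3.55 in their rescue counterparts. Exon 6 levels were 3.01, 2.94 and 7.92 RPKM in KO and 1.96, 2.05 and 5.44 in rescue libraries. Here replicates 2 of the exon 4 clone were the higher ones, the opposite of *Junb*, and each KO library again was above its rescue counterpart. The log2 change was 0.40 (SE 0.26, 95% interval -0.20 to 1.01, adjusted p = 0.737 in limma), and its antisense neighbour *Junos* overlaps the gene. Fitted with the replicate block, the interval of *Jun* was 0.19 to 0.61 (adjusted p = 0.103 in limma).

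*Fosl1* (ENSMUSG00000024912.5, chr19:5447547-5455946, plus strand) encodes FRA1, a FOS protein that accumulates later than FOS. It was at 5.58 and 5.32 RPKM in exon 4 KO libraries against 4.95 and 4.14 in rescue libraries, with no overlap. In the exon 6 clone it was at 2.07, 2.11 and 3.49 RPKM in KO libraries and at 1.18, 1.33 and 3.63 in rescue libraries, where sample 3 of the rescue cells was the highest of the 6. The log2 change over both clones was 0.31 (SE 0.18, 95% interval -0.10 to 0.72, adjusted p = 0.693 in limma). The interval became 0.06 to 0.57 with the replicate block (adjusted p = 0.298 in limma). The gene overlaps *Ccdc85b* on the minus strand.

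*Fos* (ENSMUSG00000021250.10, chr12:85473890-85477273, plus strand) encodes the prototype of the family. It was at 1.14 and 1.16 RPKM in exon 4 KO libraries and at 0.696 and 1.74 in exon 4 rescue libraries, with the KO values between the rescue values. Its exon 6 levels were 0.636, 0.467 and 1.08 RPKM in KO and 0.231, 0.125 and 1.46 in rescue libraries. The lowest and the highest value of the 6 were thus technical replicates of 1 rescue sample. The log2 change was 0.16 (95% interval -0.37 to 0.68), with 2 pairs higher and 2 lower, and it turned to -0.037 without exon 6 rescue replicate 1.

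*Fosb* (ENSMUSG00000003545.2, chr7:19302696-19310051, minus strand), the least abundant of the 10, encodes another FOS protein. It was at 0.437 and 0.713 RPKM in the exon 4 KO libraries and at 0.291 and 1.03 in their rescue counterparts. Exon 6 values were 0.473, 0.398 and 0.551 RPKM in KO and 0.244, 0.223 and 0.355 in rescue libraries, so that every KO library was above every rescue library. The log2 change was 0.15 over both clones (95% interval -0.32 to 0.62) and 0.35 in the exon 6 clone (95% interval 0.06 to 0.63, adjusted p = 0.328 in limma).

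*Egr1* (ENSMUSG00000038418.7, chr18:34859823-34864984, plus strand), a zinc finger factor gene with several SRF sites and a standard readout of ERK activity, varied most between replicates. It was at 19.6 and 4.47 RPKM in exon 4 KO libraries and at 15.9 and 3.32 in exon 4 rescue libraries. Exon 6 KO cells had 7.68, 6.30 and 10.4 RPKM, and exon 6 rescue cells had 5.53, 2.87 and 12.4. The difference between replicates 1 and 2 of the exon 4 clone, 2.02 in KO and 2.10 in rescue cells on the log2 scale, was larger than the difference between genotypes within a pair, which was 0.30, 0.38, 0.44 and 0.12. The log2 change over both clones was 0.31 (SE 0.51, 95% interval -0.86 to 1.47, adjusted p = 0.910 in limma), and fell to -0.10 without exon 4 KO replicate 1 and to -0.12 without exon 4 rescue replicate 2. Both of these fits lacked the replicate block and kept the other sample of the pair, which left the difference between replicates 1 and 2 unbalanced. With all replicates and the block, the 95% interval was 0.09 to 0.53 (adjusted p = 0.234 in limma).

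The swing of *Egr1* in the exon 4 clone was shared by *Nr4a1*, an orphan nuclear receptor gene of the same early wave. *Nr4a1* was at 18.03 and 1.39 RPKM in exon 4 KO libraries 1 and 2 and at 9.35 and 1.40 in the rescue libraries. *Nr4a1* and *Egr1* were the genes with the largest excess of replicate 1 over replicate 2 that was seen in both genotypes, ranked by the smaller of both differences. The remaining members were divided. The same difference was 0.50 and 0.60 for *Junb* in KO and rescue cells, 0.39 and 0.95 for *Myc*, 0.37 and 0.13 for *Ier2* and 0.06 and 0.23 for *Fosl1*, and it was -0.73 and -0.66 for *Jun*, -0.37 and -0.95 for *Fosb*, and -0.02 and -0.90 for *Fos*.

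*Ier2* and *Ier3* encode small nuclear and stress-related proteins that are induced along with the transcription factors. *Ier2* (ENSMUSG00000053560.4, chr8:84661331-84662852, minus strand, a single exon) was at 6.59 and 4.99 RPKM in exon 4 KO libraries and at 4.02 and 3.62 in exon 4 rescue libraries, with no overlap. Exon 6 KO libraries had 3.57, 3.72 and 9.10 RPKM, against 1.38, 2.25 and 7.72 in rescue libraries. Samples 3 of both genotypes were the highest of all 10 libraries, and each KO library was above its rescue counterpart. *Ier2* had the largest change of the 10, with 5.39 ± 1.41 RPKM in KO and 3.50 ± 1.53 in rescue cells (SD, n = 4 each) and a log2 change of 0.63 (SE 0.31, 95% interval -0.09 to 1.34, adjusted p = 0.631 in limma). This corresponds to 1.54-fold on the scale of RPKM + 0.5, with an interval from 0.940-fold to 2.54-fold. On the log2 scale, the interval of *Ier2* was 0.29 to 0.96 with the replicate block (adjusted p = 0.104 in limma).

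*Ier3* (ENSMUSG00000003541.6, chr17:35821684-35822923, plus strand), a survival gene of the early response, was the steadiest of the 10 after *Srf*. It was at 5.27 and 5.79 RPKM in the exon 4 KO libraries and at 5.36 and 5.32 in their rescue counterparts. The exon 6 clone had 3.69, 3.91 and 6.66 RPKM in KO and 3.32, 3.92 and 5.32 in rescue libraries. The groups overlapped in both clones, and the log2 change was 0.10 (95% interval -0.21 to 0.41), an interval that reaches to 1.33-fold. Without exon 6 KO replicate 2 it was -0.0038.

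*Myc* (ENSMUSG00000022346.11, chr15:61985391-61990374, plus strand) encodes the growth-promoting factor that starved fibroblasts induce on serum addition. It was at 10.1 and 7.58 RPKM in the exon 4 KO libraries and at 10.997 and 5.44 in their rescue counterparts. The exon 6 libraries were at 5.84, 5.27 and 8.73 RPKM in KO and at 8.93, 6.71 and 11.98 in rescue libraries, so that each KO library was below the rescue library of its number. *Myc* was the only one of the 10 with a negative change over both clones, -0.16 (95% interval -0.68 to 0.36), which was 0.76 with RPKM as deposited, where the median over all genes was 0.64. In the exon 6 clone the change was -0.48 (95% interval -0.81 to -0.16, adjusted p = 0.248 in limma).

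*Srf* (ENSMUSG00000015605.5, chr17:46548329-46556175, minus strand), whose product binds the CArG boxes, varied least. It was at 1.65 and 1.75 RPKM in the exon 4 KO libraries and at 1.30 and 1.20 in their rescue counterparts. Exon 6 libraries were at 1.31, 1.49 and 1.20 RPKM in KO and at 1.43, 1.64 and 1.84 in rescue libraries. KO replicates were above the rescue replicates in the exon 4 clone and below them in the exon 6 clone. The change over both clones was 0.07 (95% interval -0.21 to 0.36), and its difference between the clones, exon 6 minus exon 4, was -0.51 (95% interval -0.94 to -0.09, adjusted p = 0.997 in limma). *Gm26904* and *Mir6976* overlap the gene.

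Tested within each clone, none of the 10 passed. In the exon 6 clone 189 of 15301 genes were called higher (1.24%) and 10 lower (0.0654%) in KO cells, and 0 of the 10 members, of which *Fosb* and *Myc* had an unadjusted p under 0.05, as had 11.8% of all genes. *Fosb* and *Egr1* had both KO replicates above both rescue replicates, as 21.8% of all genes did, and *Myc* and *Srf* had both below, as 20.9% did. When the 6 libraries are taken one by one, only *Fosb* of these 4 did not overlap. In the exon 4 clone 0 of 18751 genes were called (0%), and 4.1% had an unadjusted p under 0.05, among them *Ier2* with a log2 change of 0.53 (adjusted p = 0.988 in limma). *Lin37* itself, with a log2 change of -1.84, had an adjusted p of 0.167 there. *Fosl1*, *Ier2* and *Srf* had both exon 4 KO replicates above both rescue replicates, as had 11.4% of all genes. The difference of the change between the clones was called for 0 of 16866 genes (0%), with 4.06% at an unadjusted p under 0.05, *Srf* alone among the 10. These fits lacked the replicate block. With it, *Fosb*, *Jun*, *Junb*, *Ier2* and, with a negative change, *Myc* had an unadjusted p under 0.05 in the exon 6 clone (12.8% of all genes). In the exon 4 clone *Junb* and *Ier2* had one (9.25% of all genes), and *Myc* and *Srf* had one for the difference between the clones (7.29%). None of the 10 was called in the fits with the block.

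More genes differed between the clones than between the genotypes. Over KO and rescue cells together, 6.84% of genes were called higher and 6.71% lower in the exon 6 than in the exon 4 clone, and among the 10 *Fosl1* and *Junb* were called lower. *Fosl1* was at a mean of 2.13 RPKM in the exon 6 and 4.996 RPKM in the exon 4 clone (log2 difference -1.10, SE 0.18, adjusted p = 0.00650 in limma). *Junb* was at 5.54 and 10.9 RPKM (log2 difference -0.93, SE 0.24, adjusted p = 0.0360 in limma). Both calls, counted over the 10, depended on which technical replicates were used. With sample 2 alone 5 members were called, beside 913 genes called higher and 896 lower of 17188. With sample 3 alone, an alternative chosen after seeing the data, none was, beside 1019 genes higher and 1078 lower of 16537. A difference between clones cannot be told apart from how they were handled.

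In these genes, samples 2 and 3 of the exon 6 clone were further apart than KO and rescue cells were. The median difference of the 10 on the log2 scale, sample 3 minus sample 2, was 0.69 in KO and 1.20 in rescue cells, beside -0.004 and -0.003 over all 7532 genes whose mean reached 1 RPKM. *Egr1* differed by 0.68 in KO and 1.94 in rescue cells, *Ier2* by 1.19 and 1.58, *Jun* by 1.29 and 1.22, *Fos* by 0.70 and 1.65, and *Junb* by 0.95 and 1.44. *Srf*, with -0.23 and 0.13, was an exception. *Fosb* differed by 0.23 and 0.24, which the added 0.5 RPKM understates at its low levels. It went from 0.398 to 0.551 RPKM in KO and from 0.223 to 0.355 in rescue cells. Of the 8 members whose mean reached 1 RPKM, 6 were more than 0.5 higher in sample 3 in both genotypes, against 181 of the 7532 genes. The same held for 3 of 10 other immediate early transcription factor genes, 3 of 9 secreted and matrix genes and 2 of 9 brakes of the early response, lists described further on, and for 1 of 12 cytoskeletal SRF targets and 0 of 15 genes of the ERK pathway. GC content moved with the same difference over all genes: 5 of these 8 members lie in the fifth of genes richest in GC, where the median difference was 0.085 in KO and 0.108 in rescue cells. Other genes far higher in sample 3 included the histone genes *Hist1h2ao* (1.92 and 2.77) and *Hist1h2bg* (1.45 and 1.62) and the chemokine genes *Cxcl1* (1.41 and 1.40) and *Ccl2* (1.39 and 1.92).

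**Figure D3:**
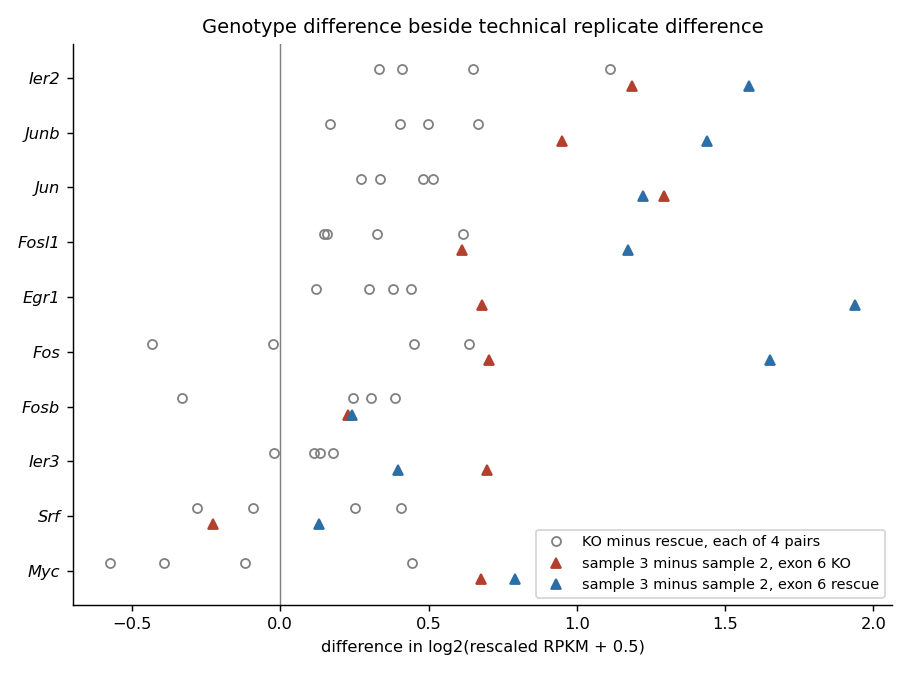
For each immediate early gene, differences in log2(rescaled RPKM + 0.5): KO minus rescue in each of the 4 pairs (open grey circles), and sample 3 minus its technical replicate sample 2 in exon 6 KO (red triangles) and rescue cells (blue triangles). For *Jun*, *Junb*, *Egr1*, *Fos*, *Ier2*, *Ier3* and *Myc* both triangles lie to the right of every circle, and for *Srf* they lie among them.

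Leaving sample 3 out, the median change of the 10 over both clones was 0.36, with 3 of the 10 and 8.59% of all genes at an unadjusted p under 0.05, and none of the 10 was called. *Ier2* then had a log2 change of 0.70 (95% interval 0.35 to 1.05, adjusted p = 0.0827 in limma). With sample 3 in place of sample 2, the median was 0.18, none of the 10 and 7.82% of all genes had an unadjusted p under 0.05, and *Ier2* was at 0.60 (95% interval -0.37 to 1.57, adjusted p = 0.868 in limma). After a correction of each replicate for GC content, also chosen after seeing the data, the median was 0.24 and 0 of the 10 were called. Within the exon 6 clone the median was 0.33 with samples 2 and 3 averaged. With sample 2 alone it was 0.52, and 5 of the 10 and 9.11% of all genes had an unadjusted p under 0.05 in limma. With sample 3 alone it was 0.25, with 0 of the 10 and 9.92% of all genes. None of the 10 was called in either. Leaving out single replicates of that clone moved the median between -0.05, without rescue replicate 1, and 0.61, without rescue replicate 2.

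No gene was called in 7 lists of genes that stand around the 10 in the same response. Of 17 other immediate early transcription factor genes tested, 0 were called in either direction, with a median log2 change of 0.10. The changes of *Nr4a1* (0.51, 95% interval -1.08 to 2.11) and of *Btg2*, an antiproliferative early gene (0.50, 95% interval 0.10 to 0.91, adjusted p = 0.391 in limma), were the largest of this list. *Btg2* was at 5.01 and 3.31 RPKM in exon 4 KO and 2.77 and 2.28 in rescue libraries, and at 2.01, 2.20 and 2.21 RPKM in exon 6 KO and 1.05, 1.04 and 2.98 in rescue libraries. Every KO library except exon 6 sample 3 was above its rescue counterpart, and with sample 2 alone *Btg2* was called, with an adjusted p of 0.0474 in limma.

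Of 14 genes for RNA decay factors and brakes on signalling, which are induced by the pathways that they turn off, 0 were called, with a median of 0.05. *Socs3*, an inhibitor of cytokine receptors, was at 7.70 and 3.78 RPKM in exon 4 KO against 5.13 and 2.84 in rescue libraries, and at 2.47, 2.13 and 2.98 RPKM in exon 6 KO against 1.32, 1.43 and 1.93 in rescue libraries. Each KO library was above its rescue counterpart, and the log2 change was 0.52 (adjusted p = 0.558 in limma), or 0.0485 with the replicate block, which called it, a call that was lost when the block was combined with the GC correction. *Dusp1*, a phosphatase of MAP kinases, changed by 0.25 (adjusted p = 0.772 in limma).

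Of 14 secreted and matrix genes of the early response, 0 were called, with a median of -0.07. *Ptgs2*, which encodes the prostaglandin synthase COX-2, was at 4.26 and 3.22 RPKM in exon 4 KO and 2.70 and 2.90 in rescue libraries, and at 6.03, 6.55 and 5.199 RPKM in exon 6 KO and 3.61, 3.41 and 4.86 in rescue libraries. All KO libraries of a clone were above all its rescue libraries. By replicates, 21.8% of all genes in the exon 6 and 11.4% in the exon 4 clone had KO above rescue in this way. The log2 change of *Ptgs2* was 0.46 (95% interval 0.21 to 0.71, adjusted p = 0.117 in limma). It was called without exon 4 KO replicate 2 (log2 change 0.55, adjusted p = 0.0378). *Cxcl1* had the most negative value, -0.37 (adjusted p = 0.777 in limma).

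Of 13 cytoskeletal genes that SRF regulates with MRTF cofactors, 0 were called, and 3 had a positive change (median -0.08). *Tagln* and *Tpm1*, both of actin filaments, were at -0.25 and -0.20. Of 20 genes for SRF cofactors and the ERK pathway, 0 were called and the median was 0.01. The adaptor gene *Shc1* had the largest value, 0.27 (95% interval -0.07 to 0.61), and *Map2k2*, which encodes MEK2, was at -0.15. These are transcript levels, and the activity of the kinases was not measured in these libraries.

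Around *Myc*, 0 of 8 genes for its partners and antagonists and 0 of 16 MYC targets and delayed early growth genes were called, with medians of 0.01 and 0.02. *Mlx*, a dimer partner of the MYC network, was at 2.36 ± 0.197 RPKM in KO and 1.69 ± 0.370 in rescue cells (SD, n = 4 each, log2 change 0.40, adjusted p = 0.190 in limma), and *Mxd3*, a MYC antagonist gene, was at 0.26. The D-type cyclin genes, which growth factors induce, pointed both ways. *Ccnd2* was at 7.60 ± 1.20 RPKM in KO and 9.63 ± 0.365 in rescue cells (log2 change -0.33, adjusted p = 0.368 in limma), and *Ccnd1* was at 3.12 ± 0.816 and 2.68 ± 1.64 RPKM (log2 change 0.28, adjusted p = 0.786 in limma).

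The same fit called 7 of 9 DREAM target genes higher in KO cells, with a median log2 change of 1.33, and all 9 had the higher level in the KO sample of each of the 4 pairs. These 9 were chosen with earlier results of these data known, so their count is no independent evidence of direction. *Cdc45*, which acts in replication initiation, was at 3.10 ± 0.694 RPKM in KO and 0.469 ± 0.0203 in rescue cells (SD, n = 4 each, log2 change 1.87, adjusted p = 0.000155 in limma). *Mcm5*, of the replicative helicase, changed by 1.99, *Nek2*, *Bub1* and *Ttk*, mitotic kinase genes, by 1.37, 1.37 and 1.33, *Ccnb2* by 0.77 and *Rad54l* by 0.74. *E2f2* (0.36) and *Orc1* (0.63) did not pass. The upper ends of the 95% intervals of the 10 immediate early genes in this fit, which has no replicate block, ran from 0.36 for *Srf* to 1.47 for *Egr1*. With the block they ran from 0.23 for *Myc* to 0.96 for *Ier2*, and that of *Egr1* was 0.53.

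**Figure D4:**
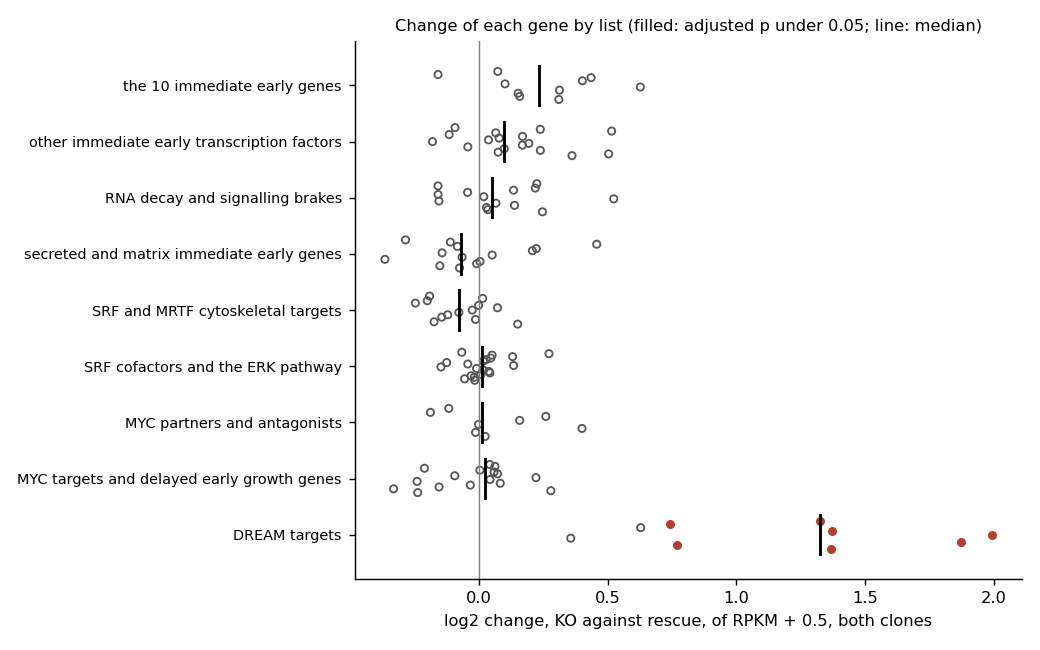
Log2 change of RPKM + 0.5, KO against rescue over both clones, of each tested gene by gene list; filled red circles have an adjusted p under 0.05 in limma, open circles do not, and vertical lines are list medians. The only filled circles are 7 of the 9 DREAM targets, and the median of the 10 immediate early genes lies at 0.23.

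The genes whose pattern over the 8 replicates was most like the mean of the 10, among 7542 genes, were *Ppp1r15a*, a phosphatase subunit gene of the stress response, with Pearson's r = 0.971, *Nubp1* (0.950), *Rbm17* (0.947), *Btg2* (0.942), *Surf2* (0.941), *Yars* (0.935), *Isg20l2* (0.934) and *Gm5940* (0.934). The replicates share clones and libraries, so r is a measure of likeness only. The mean of the 10 was highest in exon 4 KO replicate 1, at 2.30 on the log2 scale, and lowest in exon 6 rescue replicate 1, at 1.26. The members were not equally alike among themselves. Against the mean of the other 9, r was 0.955 for *Junb*, 0.878 for *Ier3*, 0.876 for *Fosl1*, 0.856 for *Ier2* and 0.628 for *Fos*. It was 0.280 for *Srf*, 0.228 for *Egr1*, 0.224 for *Jun*, 0.203 for *Fosb* and 0.121 for *Myc*.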

How the data were processed

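RNA-seq of 10 libraries of serum-starved NIH3T3 cells was analysed, as rRNA-depleted total RNA. The authors clipped adapters with cutadapt, mapped reads to mm10 with segemehl, counted them per gene with rnacounter against GENCODE and deposited RPKM. Their edgeR test needs counts and was not repeated. Low values were whole multiples of 1 read (tolerance 0.05) in only 19.9 to 34.6% of cases per library, so that reads were not recovered. Whether the counting used strand is not given in the sources used here.

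Gene names and positions came from a GENCODE annotation of GRCm38, with 44585 of 45232 entries matched. Each library was scaled by median of ratios, using genes above 0 everywhere whose mean reached 1 RPKM, and samples 2 and 3 of the exon 6 clone were averaged. Genes whose mean reached 0.1 RPKM were tested on log2(RPKM + 0.5) with limma 3.58.1 in R 4.3.3 (lmFit, eBayes with a trend), with Benjamini-Hochberg adjustment over all genes, called at an adjusted p under 0.05. Such log2 changes understate changes of low genes. The procedure was tested on simulated data. Python 3.11.15, pandas 2.3.3, numpy 2.4.6 and matplotlib 3.10.9 were used.

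Groups came from the sample labels. Deviations from group means of same-numbered KO and rescue replicates correlated over 7550 genes with 0.477 in the exon 4 and 0.360 in the exon 6 clone, so the numbers were taken to pair the samples. They come from the sample labels, which do not say whether the cultures were grown together, and p-values measure the spread between these samples. The 10 genes, the gene lists, markers and tests were chosen with earlier results of these data known. Named were all 10 genes, *Lin37*, the called genes and the 2 with the largest absolute change in each list, and the 8 genes most like the mean of the 10. *E2f2*, *Orc1* and genes that stood out between replicates were named beyond this rule, after their values were seen.

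Alternatives were pseudocounts of 0.1 and 1, no minimum or 1 RPKM, quantile normalization or unscaled RPKM, samples 2 and 3 kept separate or sample 2 alone, the replicate block, dropping the clone covariate or the limma trend, and leaving out each replicate. Sample 3 alone, a lowess GC correction, and that correction with the block were added after seeing the data.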

Additional observations from a re-analysis of the deposited data

Results flagged for a closer look

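*Fosb* stood apart in 1 replicate of each genotype, by a test of the gap between the most extreme replicate and its nearest neighbour among the 4 of a group, which chance alone meets in about 1 of 20 groups. Exon 4 KO replicate 2, at 0.713 RPKM, was above the other KO replicates, and exon 4 rescue replicate 2, at 1.03 RPKM, was above the other rescue replicates. Each group of 4 held both clones, and the test was not adjusted for the number of groups examined.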

How the results depend on the processing

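With RPKM as deposited, without rescaling, 1 of the 10 genes was called over both clones (*Ier2*, log2 change 1.498, adjusted p = 0.0200 in limma), 875 genes (5.35%) were called higher, and *Myc* was at 0.76, beside a median over all genes of 0.64. In the exon 6 clone 8 of the 10 were then called, beside 61.4% of all genes called higher and an all-gene median of 0.69. Between the clones 0 of the 10 were then called, beside 2484 genes called higher and 261 lower of 16349. Under every other alternative, 0 of the 10 were called over both clones or in either clone. The 2 calls between the clones became 1 with no minimum level, beside 539 genes called higher and 500 lower of 40885. They also became 1 with technical replicates as separate libraries (1324 genes higher and 1591 lower of 16549). They became 5 with exon 6 sample 2 alone and 0 with sample 3 alone, beside the all-gene counts given above. Without single replicates they were 1 to 2, beside 528 to 1244 genes higher and 483 to 1847 lower. The 271 genes called higher over both clones became 171 with no minimum level and 93 with a minimum of 1 RPKM, where fewer genes were tested, and 174 to 265 without single replicates, lowest without exon 6 KO replicate 2. The 14 called lower became 6 with no minimum level, 6 without the clone covariate, 6 with sample 3 alone, 27 with the replicate block, and 4 to 16 without single replicates. Without single replicates, log2 changes turned for *Fos* (-0.037 to 0.368, negative without exon 6 rescue replicate 1), *Egr1* (-0.12 to 0.72, negative without exon 4 KO replicate 1 or rescue replicate 2) and *Ier3* (-0.0038 to 0.182, negative without exon 6 KO replicate 2). The fits without single replicates had no block and kept the other sample of the pair, so differences between replicate numbers were unbalanced in them. Other causes were not tested. The replicate block changed no call among the 10 and could not be fitted for the comparison between the clones, since it holds the clone. A depth limit could not be set, as the deposited values hold no counts.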
